A study of Homo sapiens with 4 samples.

Results

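The 10 genes described here encode glycoproteins of the extracellular matrix: the thrombospondins THBS1, THBS2 and THBS3, fibronectin (FN1), the fibrillins FBN1 and FBN2, the microfibril-associated glycoproteins MFAP2 and MFAP5, lumican (LUM) and periostin (POSTN). They were taken by symbol, and all 10 were found among the 26364 genes of the deposited tables. All 10 also passed the filter on low counts that left 16040 genes for testing. RNA was sequenced from NTERA2 cells (clone CRL-1973 in the labels), a human embryonal carcinoma line. The sh60 group (labelled BEND3 sh60) has replicates 1 and 2, and the LacZ group (labelled BEND3 LacZ) has replicates 1 and 3. BEND3 is a chromatin-bound repressor with BEN domains. The labels do not define the groups further, and sh60 is taken here as a short hairpin RNA against BEND3 and LacZ as its control. All libraries came from cells of the same line grown in high-glucose DMEM with serum. The time of harvest and the delivery of the hairpin are not given in the sources used here.

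The genes were chosen by their read counts in sh60 against LacZ, with that difference already known, so their values in that comparison are a description and carry no test of their own. Nothing says that the replicates came from separate cultures, so the errors and p-values below measure the spread between these libraries, which may be technical. That spread was estimated with information shared across genes, so the error of a gene is not its own spread alone.

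Cells secrete these proteins and assemble them outside the plasma membrane. Fibronectin is secreted as a dimer and drawn out into fibrils by integrins, and later matrix proteins are deposited on those fibrils. Fibrillins polymerise into microfibrils, which carry MFAP2 and MFAP5, form a scaffold for elastin and hold latent TGF-beta in the matrix. Thrombospondins are matricellular proteins, which bind receptors, proteases and growth factors rather than bearing load. In the embryo fibronectin and FBN2 are laid down early, whereas lumican and periostin are typical of collagen-rich connective tissue.

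The libraries held between 30338285 and 44788461 counts, and 1 count was worth 0.0221 to 0.0333 CPM, here counts scaled to library size with edgeR's TMM factors. BEND3 itself measured 55.7 and 52.0 CPM in sh60 replicates 1 and 2, against 68.8 and 79.3 CPM in LacZ replicates 1 and 3. The edgeR quasi-likelihood test gave an adjusted p of 0.00168 for its log2 fold change of -0.46 (SE 0.098). Without LacZ replicate 3 the change was -0.36 and the adjusted p 0.153, the highest of the alternatives, which began at 3.85e-05. The 2 LacZ libraries differed from each other: of these 10 genes, 9 had more CPM in replicate 1 than in replicate 3, against 49.3% of all tested genes and 75.5% of the 2540 genes that were higher in sh60. Replicate 1 stood at 0.94 to 2.67 times replicate 3. In sh60, 6 of the 10 genes were higher in replicate 2 than in replicate 1, and replicate 2 stood at 0.94 to 1.34 times replicate 1. The share over all tested genes was not computed for the sh60 pair, so nothing is read from that count. The labels call the line a lung carcinoma. Of 9 lung epithelial markers, only 2 had enough counts to be tested and neither passed, SFTPB and SCGB1A1 were at 0 in all libraries, and SCGB3A2 alone exceeded 1 CPM (13.3 and 14.5 CPM in sh60, against 15.3 and 16.2 CPM in LacZ). Of 12 pluripotency markers, 1 passed as higher and 5 as lower in sh60, beside 15.8% higher and 13.0% lower of all tested genes. SOX2 was higher, at a log2 fold change of 0.31. DNMT3B (-0.72), TDGF1 (-0.49), LIN28B (-0.45), SALL4 (-0.31) and NANOG (-0.25) were lower. The other 6 did not pass, among them POU5F1, with levels of 910.1 and 1016 CPM in sh60 and 934.5 and 955.4 CPM in LacZ.

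RefSeq promoter sequence (GRCh38.p14) was matched for 8 of the 10 genes, all but MFAP5 and LUM. The 250 bases before the annotated start are shown for 4 of these genes that contrast in base composition and sequence motifs. They are FN1 at chr2:215436069-215436318, minus strand, THBS1 at chr15:39580829-39581078, plus strand, THBS2 at chr6:169253847-169254096, minus strand, and POSTN at chr13:37598769-37599018, minus strand, each written 5′ to 3′ on the strand of its gene. Capitals mark matches, on either strand, to the TATA box TATAAA, the Sp1 core GGGCGG, the CCAAT box, the cyclic AMP element TGACGTCA, the AP-1 motif TGANTCA and the TEAD core GGAATG.
FN1: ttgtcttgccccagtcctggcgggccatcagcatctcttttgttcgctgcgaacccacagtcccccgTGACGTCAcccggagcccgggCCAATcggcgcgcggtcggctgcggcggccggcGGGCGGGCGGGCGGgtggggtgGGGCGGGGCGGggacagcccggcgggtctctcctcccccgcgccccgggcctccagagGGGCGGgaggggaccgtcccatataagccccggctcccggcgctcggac
THBS1: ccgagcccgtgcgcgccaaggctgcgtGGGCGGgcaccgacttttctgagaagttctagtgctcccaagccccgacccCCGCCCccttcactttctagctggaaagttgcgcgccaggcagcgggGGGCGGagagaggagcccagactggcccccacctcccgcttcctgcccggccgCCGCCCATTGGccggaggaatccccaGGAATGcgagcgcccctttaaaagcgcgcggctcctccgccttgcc
THBS2: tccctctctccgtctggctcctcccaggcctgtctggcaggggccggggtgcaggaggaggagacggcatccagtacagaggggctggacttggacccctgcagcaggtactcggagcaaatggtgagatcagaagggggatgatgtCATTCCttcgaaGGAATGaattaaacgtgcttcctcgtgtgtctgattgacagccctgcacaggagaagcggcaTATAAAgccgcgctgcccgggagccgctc
POSTN: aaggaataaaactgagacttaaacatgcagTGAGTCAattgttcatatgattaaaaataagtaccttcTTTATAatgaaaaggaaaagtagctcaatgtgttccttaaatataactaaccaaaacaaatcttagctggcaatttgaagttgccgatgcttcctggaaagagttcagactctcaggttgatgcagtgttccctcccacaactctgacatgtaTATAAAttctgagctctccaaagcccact

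The windows of FN1 and THBS1 are rich in G and C (76.4% and 69.6%, against a median of 58.0% over all promoter windows), and that of POSTN is poor in them (36.4%). FN1 holds 6 copies of GGGCGG, the core of the Sp1 site, some of which overlap. It also holds 1 CCAAT and the cyclic AMP response element TGACGTCA, which is found in 1.65% of 35116 promoter windows. THBS1 holds 4 copies of GGGCGG, present in 42.6% of windows, and 1 CCAAT, which abuts the last of them. TATAAA, in 10.7% of windows, occurs 29 to 24 bases before the start in both THBS2 and POSTN. GGAATG, the core of sites bound by TEAD factors and found in 11.9% of windows, is in THBS1 (1 copy), THBS2 (2 copies) and FBN1 (1 copy). TGANTCA, the AP-1 motif, is in 6.57% of windows and was matched in POSTN and in 1 of 2 MFAP2 windows. These matches describe the letters in the windows only.

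Most of the 10 genes were higher in sh60 than in LacZ. By the edgeR fit over all genes, 8 were higher at an adjusted p under 0.05, 0 were lower and 2 (FBN2 and MFAP2) did not pass. Over all 16040 tested genes 28.8% passed, 15.8% as higher and 13.0% as lower in sh60. Those 2540 higher and 2084 lower genes became 1331 and 956 without LacZ replicate 3, and 1166 were lower without LacZ replicate 1. For the lower direction, the members numbered 1 at an unadjusted edgeR p under 0.05, 0 by DESeq2 and 1 by limma-voom, each time MFAP2 where there was 1. For 8 genes both sh60 libraries lay above both LacZ libraries, as for 32.1% of tested genes, and for MFAP2 both lay below, as for 32.3%. A log2 fold change of 1 or more with a pass was found for 5 of the 10, beside 3.58% of tested genes. The median log2 fold change was 1.05, beside -0.0042 over all tested genes. These counts follow from how the genes were chosen and support nothing beyond the values. In bulk RNA, a change in the share of cells that express a gene and a change in RNA per cell cannot be told apart.

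**Figure D1:**
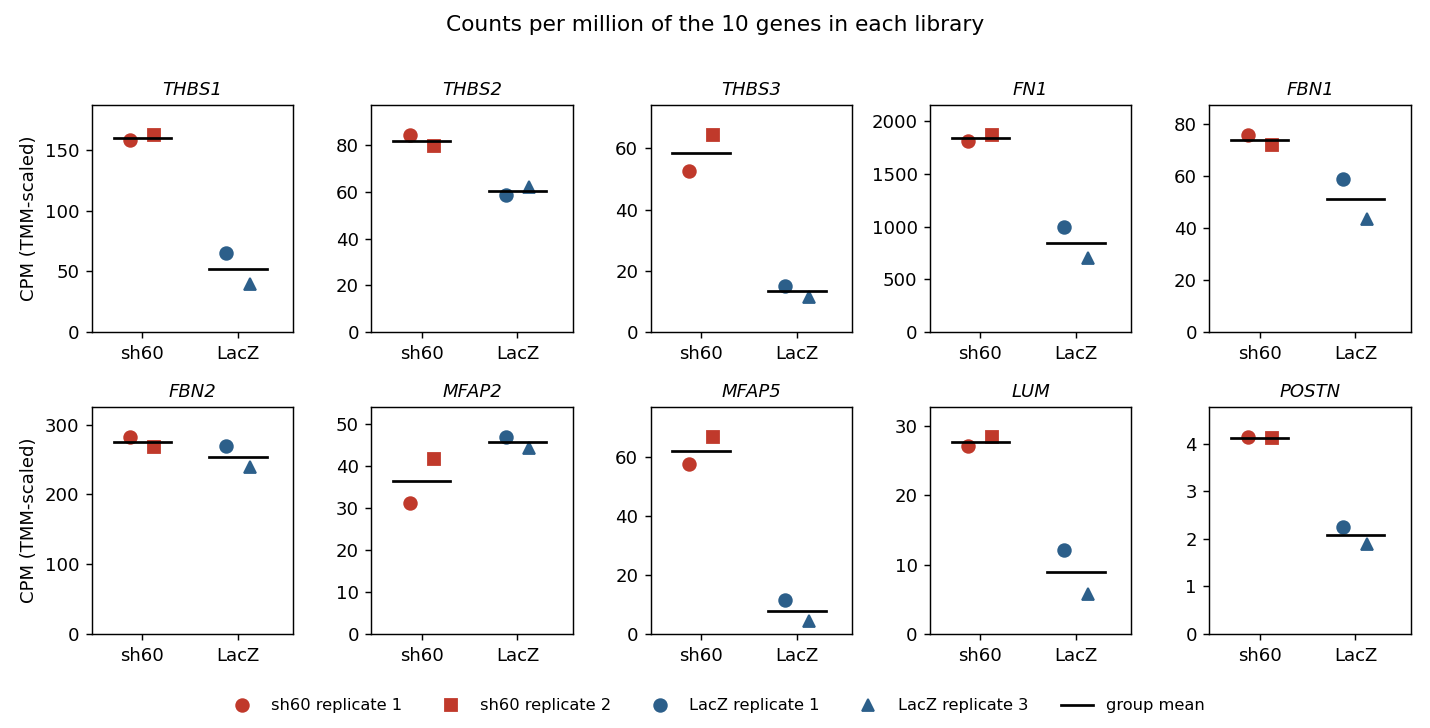
CPM of each gene in the 2 sh60 libraries (red) and the 2 LacZ libraries (blue), with the group mean as a bar and every axis starting at 0. FBN2 is the gene whose groups overlap, MFAP2 lies lower in sh60, and the other 8 lie higher in both sh60 libraries.

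THBS1 (chromosome 15, 39873280 to 39891121, plus strand, hg19) encodes a trimeric thrombospondin that binds CD47 and CD36 and can activate latent TGF-beta. It measured 158 and 162 CPM in sh60 replicates 1 and 2, against 64.9 and 39.3 CPM in LacZ replicates 1 and 3. The groups did not overlap, the sh60 libraries were close to each other, and the LacZ libraries were spread. The means were 160.2 ± 3.18 CPM in sh60 and 52.1 ± 18.1 CPM in LacZ (SD, n = 2 each), a 3.08-fold difference with a log2 fold change of 1.61 (SE 0.15). It was 2.03 without LacZ replicate 1 and 1.30 without LacZ replicate 3.

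THBS2 (chromosome 6, 169615875 to 169654209, minus strand, hg19), which encodes the other trimeric thrombospondin and is known as an inhibitor of new vessel growth, differed far less. It measured 84.4 and 79.6 CPM in sh60, against 58.6 and 62.3 CPM in LacZ, a mean of 82.0 ± 3.44 CPM in sh60 and 60.5 ± 2.59 CPM in LacZ (SD, n = 2 each). Both sh60 values lay above both LacZ values, and THBS2 alone among the 10 was lower in LacZ replicate 1 than in LacZ replicate 3. The log2 fold change of 0.44 (SE 0.091) did not pass without LacZ replicate 1, where it was 0.40.

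THBS3 (chromosome 1, 155165379 to 155177772, minus strand, hg19) belongs to the pentameric thrombospondins and is expressed in cartilage and bone. It measured 52.6 and 64.4 CPM in sh60, against 14.9 and 11.6 CPM in LacZ. No value of either group came near the other group. Means were 58.5 ± 8.32 CPM in sh60 and 13.3 ± 2.37 CPM in LacZ (SD, n = 2 each), a 4.41-fold difference. On the log2 scale it was 2.13 (SE 0.13), and between 1.97 and 2.34 with any 1 library left out. The remaining pentameric thrombospondins, which are not among the 10 and are named to complete the family, were lower in sh60. THBS4 fell to 4.87 and 4.93 CPM in sh60, against 7.12 and 7.88 CPM in LacZ (log2 fold change -0.61, SE 0.15, edgeR adjusted p = 0.00554). COMP, a cartilage protein of the same family, had 10 and 6 counts in sh60, against 31 and 11 counts in LacZ (log2 fold change -1.48, SE 0.51, edgeR adjusted p = 0.0380). That difference rests on few counts, all of them under 1 CPM, and on LacZ libraries that differed 2.01-fold.

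Per exon length, the make-up of the thrombospondin family therefore differed between the groups. Levels per length are given as TPM, computed from the counts and the exon lengths in the files. THBS3 gave 29.7% and 34.2% of the summed level of the 5 thrombospondin genes in sh60, against 17.5% and 16.0% in LacZ. THBS2 gave 26.8% and 23.8% in sh60, against 38.8% and 48.5% in LacZ. THBS1 gave 40.8% and 39.5% in sh60, against 34.9% and 24.8% in LacZ. The family's sum was 141.7 and 144.9 TPM in sh60, against 65.0 and 54.5 TPM in LacZ. In LacZ the leading thrombospondin was thus THBS2 in both libraries, and in sh60 it was THBS1 in both.

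**Figure D2:**
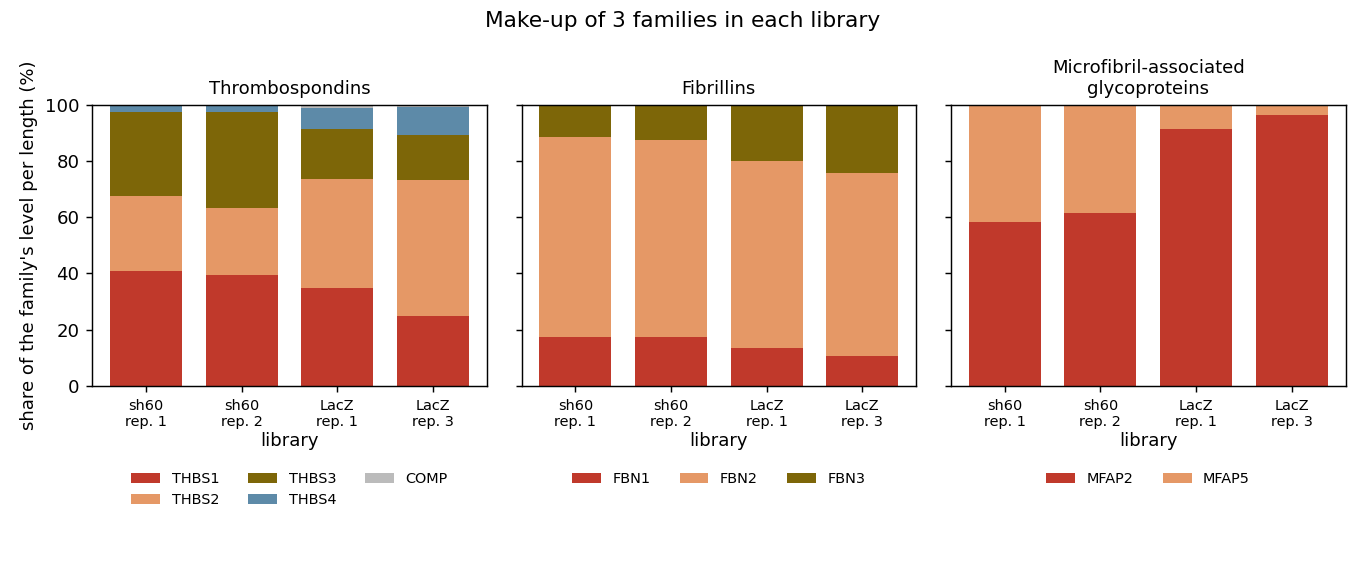
Share of each gene in the summed level per exon length of its family (%), by library, for the 5 thrombospondins, the 3 fibrillins and the microfibril-associated glycoproteins MFAP2 and MFAP5. MFAP5 makes up 41.8% and 38.4% of its pair in sh60, against 8.64% and 3.62% in LacZ, while FBN2 leads the fibrillins in every library.

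FN1 (chromosome 2, 216225163 to 216300793, minus strand, hg19) was the most abundant of the 10 genes. It measured 1818 and 1871 CPM in sh60, against 994.4 and 705.6 CPM in LacZ, and took 0.186% of all counts in sh60 and 0.0842% in LacZ on average. Both sh60 libraries were well above both LacZ libraries. The means of 1844 ± 37.8 CPM in sh60 and 850.0 ± 204.2 CPM in LacZ (SD, n = 2 each) differed 2.17-fold. This is a log2 fold change of 1.12 (SE 0.11), which was 1.39 without LacZ replicate 1 and 0.89 without LacZ replicate 3.

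Differences of the fibrillins FBN1 and FBN2 were small by comparison. FBN1 (chromosome 15, 48700503 to 48937985, minus strand, hg19), whose mutations cause Marfan syndrome, measured 75.7 and 72.0 CPM in sh60, against 58.9 and 43.2 CPM in LacZ. The groups did not overlap, with a log2 fold change of 0.53 (SE 0.12). It was 0.78 without LacZ replicate 1, and at 0.32 it did not pass without LacZ replicate 3. FBN2 (chromosome 5, 127593601 to 127873735, minus strand, hg19), the fibrillin of early microfibrils, measured 282.3 and 267.4 CPM in sh60, against 269.4 and 238.9 CPM in LacZ. Its groups overlapped, and the log2 fold change of 0.11 (SE 0.084) has a 95% confidence interval of -0.06 to 0.29. It was 0.21 without LacZ replicate 1 and 0.03 without LacZ replicate 3, and passed in neither case. FBN3, the remaining fibrillin, which is mainly fetal and is not among the 10, fell to 38.2 and 39.9 CPM in sh60, against 66.9 and 75.2 CPM in LacZ (log2 fold change -0.86, SE 0.098, adjusted p = 3.51e-06 by edgeR). The summed level of the 3 fibrillins per length was 98.2 and 90.7 TPM in sh60, against 95.1 and 85.8 TPM in LacZ. These sums overlapped between the groups, while FBN1 held 17.5% and 17.3% of them in sh60, against 13.4% and 10.8% in LacZ.

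The microfibril-associated glycoproteins differed from each other, since MFAP5 was far higher in sh60 and MFAP2 did not pass. MFAP5 (chromosome 12, 8798539 to 8815484, minus strand, hg19), a microfibril protein that also binds Notch ligands and receptors, measured 57.4 and 66.6 CPM in sh60, against 11.3 and 4.26 CPM in LacZ. Every sh60 value was several times every LacZ value, and the LacZ values themselves differed 2.67-fold. Means were 62.0 ± 6.55 CPM in sh60 and 7.80 ± 5.01 CPM in LacZ (SD, n = 2 each). The 7.94-fold difference, a log2 fold change of 2.95 (SE 0.24), was the largest of the 10, and on the log2 scale it was 3.87 without LacZ replicate 1 and 2.45 without LacZ replicate 3. MFAP2 (chromosome 1, 17300999 to 17308081, minus strand, hg19), which binds fibrillins and growth factors of the TGF-beta family, measured 31.2 and 41.8 CPM in sh60, against 46.9 and 44.4 CPM in LacZ. Both sh60 values were below both LacZ values, and sh60 replicate 2 lay close to LacZ replicate 3. Its log2 fold change was -0.32 (SE 0.12), and it ranged from -0.55 without sh60 replicate 2, where it passed as lower, to -0.13 without sh60 replicate 1.

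LUM (chromosome 12, 91497232 to 91505542, minus strand, hg19) encodes lumican, a small leucine-rich proteoglycan that binds collagen fibrils and sets their spacing. It measured 27.0 and 28.4 CPM in sh60, against 12.1 and 5.76 CPM in LacZ. The groups were apart, and LacZ replicate 1 was 2.10 times LacZ replicate 3. The means were 27.7 ± 0.935 CPM in sh60 and 8.91 ± 4.46 CPM in LacZ (SD, n = 2 each), and the log2 fold change was 1.61 (SE 0.20), or 2.27 without LacZ replicate 1 and 1.20 without LacZ replicate 3. POSTN (chromosome 13, 38136719 to 38172981, minus strand, hg19) encodes periostin, a matricellular protein with fasciclin domains that binds integrins. It was the scarcest of the 10, with 141 and 186 counts in sh60, against 95 and 57 counts in LacZ. In CPM these are 4.14 and 4.11 in sh60, against 2.26 and 1.90 in LacZ, without overlap, and the log2 fold change was 0.98 (SE 0.19). With LacZ replicate 1 left out it was 1.12, and with LacZ replicate 3 left out it was 0.87.

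**Figure D3:**
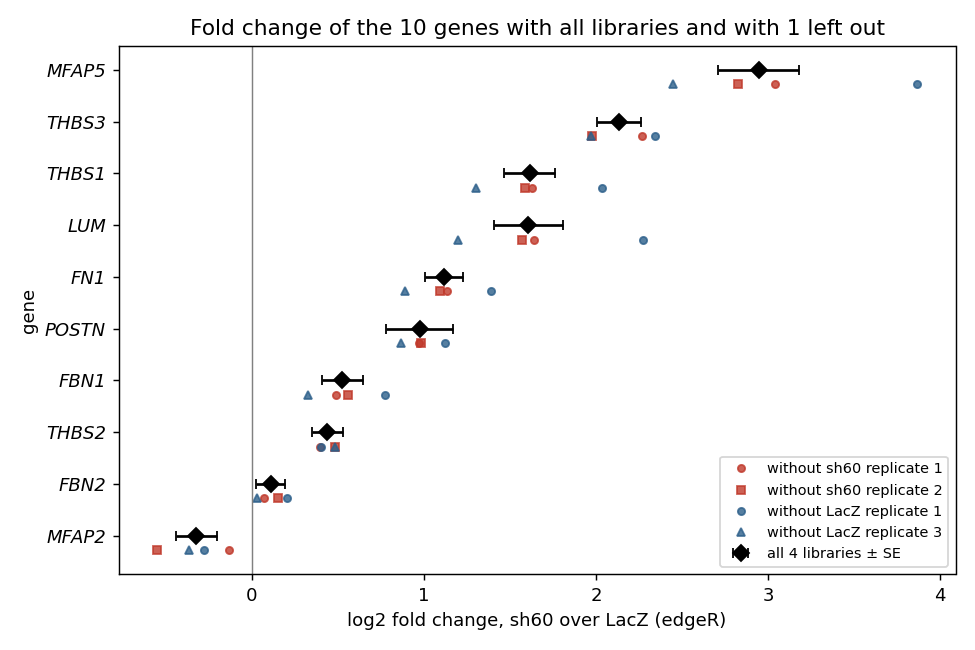
Log2 fold change of sh60 over LacZ for the 10 genes, with all 4 libraries (diamonds, bars are SE) and with 1 library left out (small symbols, coloured by the group of the library left out). MFAP5 stands highest at 2.95 and MFAP2 lowest at -0.32, and leaving out LacZ replicate 1 gave the largest value for 8 of the 10 genes.

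Levels of the 10 genes were compared per exon length. In sh60 the order was FN1 (535.5 and 530.9 TPM), MFAP2 (70.3 and 90.8), FBN2 (69.7 and 63.6), THBS1 (57.8 and 57.2), MFAP5 (50.6 and 56.6), THBS3 (42.0 and 49.5), THBS2 (38.0 and 34.5), LUM (33.9 and 34.2), FBN1 (17.1 and 15.7) and POSTN (3.25 and 3.10). No neighbours in that order overlapped between the libraries. In LacZ the order was FN1 (279.5 and 195.8 TPM), MFAP2 (101.0 and 94.4), FBN2 (63.5 and 55.6), THBS2 (25.2 and 26.4), THBS1 (22.6 and 13.5), FBN1 (12.7 and 9.23), LUM (14.4 and 6.79), THBS3 (11.4 and 8.71), MFAP5 (9.55 and 3.54) and POSTN (1.69 and 1.40). There FBN1, LUM, THBS3 and MFAP5 overlapped and are not separated, and THBS1 overlapped with LUM. FN1, MFAP2, FBN2 and POSTN held the same places in both groups, whereas MFAP5 was at place 5 in sh60 and at place 9 in LacZ. In LacZ, FN1 stood above 95.7% of tested genes in level per length, MFAP2 above 88.2%, MFAP5 above 36.3% and POSTN above 18.3%.

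**Figure D4:**
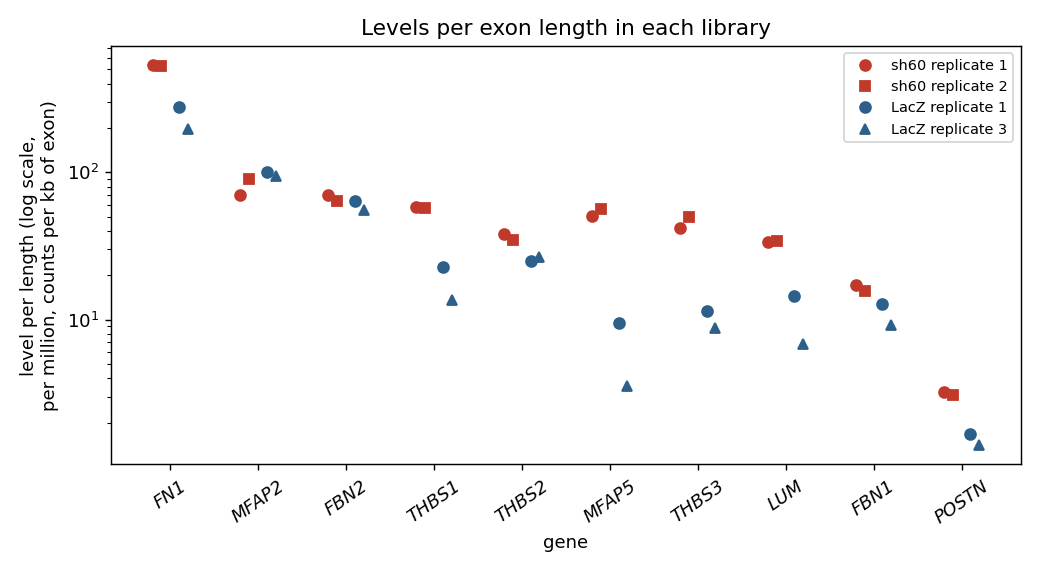
Level per exon length (log axis, TPM) of the 10 genes in each library, ordered by the mean over all 4 libraries. FN1 stands above every other gene in each library, FBN2 differs little between the groups, MFAP2 lies lower in both sh60 libraries, and MFAP5 in LacZ spans 9.55 and 3.54 TPM.

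Genes of the receptors and partners of these proteins were compared next, in lists drawn up by family and role. Their counts are to be read beside the 15.8% of all tested genes that were higher and the 13.0% that were lower in sh60, and beside the median of -0.0042. Among receptors of thrombospondins, of 9 tested genes (10 listed) 5 rose, 1 fell and 3 did not pass, with a median log2 fold change of 0.35. The 1 that fell is near the share of all genes that were lower. Without LacZ replicate 1, 0 of them were lower. LRP1, an endocytic receptor that clears thrombospondins from the surface, rose 1.69-fold to 545.3 ± 35.7 CPM in sh60, against 322.5 ± 39.4 CPM in LacZ (SD, n = 2 each; log2 fold change 0.76, SE 0.090, edgeR adjusted p = 5.91e-06). CD47, the receptor for the carboxyl end of THBS1, rose to 39.5 and 32.8 CPM in sh60, against 24.1 and 21.5 CPM in LacZ (edgeR adjusted p = 0.000277). VLDLR, a lipoprotein receptor, rose 1.77-fold and SCARB2, a lysosomal relative of CD36, rose 1.74-fold. CD36, the other classical receptor of THBS1, had 1 and 11 counts in sh60, against 11 and 2 counts in LacZ, and was not tested. It was named after its values were seen.

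Among receptors of fibronectin, the pair that makes the classical receptor did not pass. Of 12 tested genes (13 listed) 6 rose, 2 fell and 4 did not pass, with a median log2 fold change of 0.20, beside 15.8% higher, 13.0% lower and a median of -0.0042 over all tested genes. The 2 that fell are near that share. The number that fell was 0 without LacZ replicate 1, and 1 with either LacZ replicate 3 or sh60 replicate 2 left out. ITGAV, the alpha chain of integrins that bind fibronectin, periostin and fibrillin, rose to 271.5 and 235.4 CPM in sh60, against 168.6 and 114.1 CPM in LacZ (log2 fold change 0.84, SE 0.13, adjusted p = 7.95e-05 by edgeR). The beta chain ITGB3, which pairs with it, rose to 3.20 and 3.07 CPM in sh60, against 1.14 and 0.333 CPM in LacZ (log2 fold change 1.99, SE 0.32, edgeR adjusted p = 0.000127). The log2 fold change of ITGB3 was 3.23 without LacZ replicate 1 and 1.46 without LacZ replicate 3. Its LacZ values rest on 48 and 10 counts. SDC2, a heparan sulfate proteoglycan, rose 1.81-fold and ITGA4, an integrin chain that binds an alternatively spliced region of fibronectin, rose 1.87-fold. ITGA5 and ITGB1, the chains of that classical receptor, had log2 fold changes of 0.12 (SE 0.082) and 0.08 (SE 0.083), and both were named after their values were seen.

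Relatives of the microfibril and the elastic fibre moved both ways. Of 26 tested genes (27 listed) 9 rose, 10 fell and 7 did not pass, with a median log2 fold change of -0.06, beside 15.8% higher and 13.0% lower over all tested genes. LOX, the lysyl oxidase that cross-links collagen and elastin, rose to 89.1 and 89.3 CPM in sh60, against 34.8 and 15.6 CPM in LacZ (log2 fold change 1.81, SE 0.21, edgeR adjusted p = 4.23e-06). The log2 fold change of LOX was 2.52 without LacZ replicate 1 and 1.36 without LacZ replicate 3. MFAP4, a microfibril-associated protein of another family than MFAP2 and MFAP5, fell to 45.9 and 46.7 CPM in sh60, against 78.4 and 74.5 CPM in LacZ (edgeR adjusted p = 1.23e-05). ADAMTSL2, a secreted protein that binds fibrillin and latent TGF-beta binding proteins, fell to 6.64 and 8.04 CPM in sh60, against 17.5 and 15.3 CPM in LacZ. FBN3, described above with the fibrillins, had the smallest p of this list.

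The small leucine-rich proteoglycans, the family of lumican, were mostly silent. Of 15 listed genes 6 had enough counts to be tested, of which 3 fell, 0 rose and 3 did not pass, with a median log2 fold change of -0.35, where 13.0% of all tested genes fell and 15.8% rose. The number that rose was also 0 at an unadjusted edgeR p under 0.05, by DESeq2 and by limma-voom. OPTC, the eye protein opticin, fell to 1.06 and 1.24 CPM in sh60, against 3.89 and 5.09 CPM in LacZ (log2 fold change -1.94, SE 0.22, edgeR adjusted p = 4.05e-06). PRELP, an anchor between basement membrane and connective tissue, fell to 2.41 and 2.89 CPM in sh60, against 7.03 and 5.22 CPM in LacZ. FMOD, which encodes fibromodulin, the closest relative of lumican, fell to 3.85 and 3.62 CPM in sh60, against 7.93 and 5.96 CPM in LacZ (edgeR adjusted p = 0.000674). These 3 were lower in sh60, where LUM was higher.

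Other matricellular glycoproteins, the functional neighbours of thrombospondins and periostin, moved both ways. Of 17 tested genes (20 listed) 7 rose, 3 fell and 7 did not pass, with a median log2 fold change of 0.62. Over all tested genes 15.8% rose and 13.0% fell, and the 3 that fell here are near that share. SPP1, which encodes osteopontin, a ligand of integrins, rose to 563.4 and 561.8 CPM in sh60, against 248.8 and 192.8 CPM in LacZ (log2 fold change 1.35, SE 0.10, edgeR adjusted p = 4.12e-08). TGFBI, the closest relative of periostin, rose 2.65-fold (log2 fold change 1.40, SE 0.12). CYR61 (CCN1) and CTGF (CCN2), secreted proteins of the CCN family, rose 1.97-fold and 1.80-fold. Among ligands and receptors of TGF-beta, which microfibrils store, 2 of 8 tested genes rose, 4 fell and 2 did not pass, with a median log2 fold change of -0.03, and the 2 that rose are not far from the share over all genes. Without LacZ replicate 1, LacZ replicate 3 or sh60 replicate 2, the number that fell was 2. TGFB2 rose to 23.6 and 26.4 CPM in sh60, against 11.5 and 6.19 CPM in LacZ (edgeR adjusted p = 8.35e-06), and the receptor gene TGFBR2 rose 1.82-fold. TGFB1 fell to 37.0 and 42.1 CPM in sh60, against 86.8 and 83.8 CPM in LacZ (edgeR adjusted p = 1.87e-07), and ENG, the coreceptor endoglin, fell to 8.11 and 9.83 CPM in sh60, against 22.5 and 19.1 CPM in LacZ.

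**Figure D5:**
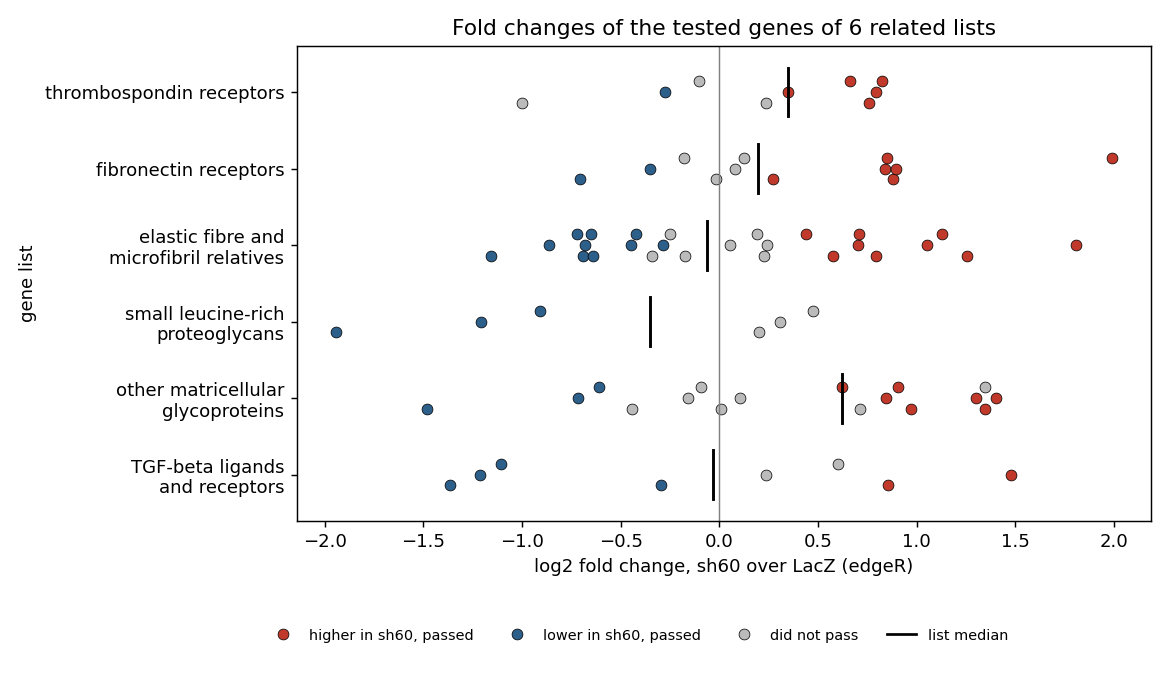
Log2 fold change of sh60 over LacZ for each tested gene of the 6 related lists, with red and blue points for genes that passed as higher or lower in sh60, grey points for the rest, and a black line at the list median. The medians run from -0.35 for the small leucine-rich proteoglycans to 0.62 for the other matricellular glycoproteins.

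Markers of fibroblasts and mesenchyme, cells that make much of these proteins, were read beside the results. Of 12 listed markers 10 were tested, of which 3 rose (COL1A1, COL1A2 and PDPN), 2 fell (PDGFRA and THY1) and 5 did not pass. Over all tested genes 15.8% rose and 13.0% fell. The median log2 fold change of the tested markers was -0.13, beside -0.0042 over all tested genes. Their summed level was 1025 and 1204 CPM in sh60, against 635.6 and 537.3 CPM in LacZ, without overlap. That separation rests on COL1A1, which alone accounted for 553.7 and 684.0 CPM in sh60, against 141.4 and 84.9 CPM in LacZ. The summed level of the other markers overlapped between the groups. COL1A2 measured 70.6 and 76.2 CPM in sh60, against 19.9 and 13.2 CPM in LacZ. Several other markers were also well expressed: THY1 at 175.3 and 189.1 CPM in sh60, against 232.8 and 229.9 CPM in LacZ, PDPN at 114.4 and 128.6 CPM in sh60, against 89.7 and 83.6 CPM in LacZ, and PDGFRB at 70.4 and 80.3 CPM in sh60, against 93.8 and 80.5 CPM in LacZ. PDGFRA measured 18.2 and 18.9 CPM in sh60, against 23.1 and 22.7 CPM in LacZ, and COL3A1, PRRX1, TWIST1 and TWIST2 lay between 3.35 and 16.8 CPM in all libraries. The remaining markers, DPT and FAP, were at or near 0, with 0 counts of DPT in every library and 6 and 7 counts of FAP in sh60, against 4 and 2 counts in LacZ. Of 10 endothelial and blood markers, 6 were tested and 4 of them fell (KDR, LAPTM5, CDH5 and VWF), where 13.0% of all tested genes fell. The median log2 fold change of the 6 was -0.80. PTPRC was at 0 in all libraries, and the summed level of the 10 was 88.9 and 83.6 CPM in sh60, against 115.3 and 98.4 CPM in LacZ. Most of that sum was TEK, at 64.5 and 59.8 CPM in sh60, against 65.9 and 56.3 CPM in LacZ. TEK and CD34 did not pass, with log2 fold changes of 0.02 and 0.05. The part of such cells in the results was not tested.

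Genes next to the 10 on their chromosomes were taken as the nearest tested gene on each side, which gave 20 genes. By edgeR, 2 of these were higher in sh60, 2 were lower and 16 missed the threshold. Over all tested genes 28.8% passed, 15.8% as higher and 13.0% as lower, so the neighbours were not called more often than other genes. TRPC4, a cation channel gene 37.8 kb from POSTN, rose to 2.21 CPM in sh60, against 0.603 CPM in LacZ (log2 fold change 1.87, SE 0.28, edgeR adjusted p = 7.62e-05), and MREG, 506.5 kb from FN1, rose by 0.31 on the log2 scale. ATIC, on the other side of FN1, and DUT, next to FBN1, fell by 0.32 and by 0.26. Without sh60 replicate 1 the number that fell was 5, without LacZ replicate 1 it was 1, and without LacZ replicate 3 it was 0 and the number that rose was 1. Some neighbours lay close to a member without passing. FSIP1, 1.11 kb from THBS1, had a log2 fold change of 0.54 (SE 0.37), MTX1, 0.718 kb from THBS3, one of 0.06 (SE 0.11) and DCN, 33.5 kb from LUM, one of 0.31 (SE 0.23), and none passed. No gene in the files overlapped any of the 10.

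The genes most like THBS1 across the 4 libraries, by the root mean square difference of centred log2 CPM among 11256 genes with a mean of at least 5 CPM, were ANXA3 (0.0415), AHNAK (0.0475) and MAMDC2 (0.0477). For FN1 they were CDH13 (0.0215), PLK3 (0.0299) and TPM1 (0.0329). With 4 libraries in 2 groups many patterns are nearly equal, and 15 genes lay within 0.1 of THBS1 and 51 within 0.1 of FN1.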

How the data were processed

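Single-end mRNA sequencing of 4 NTERA2 libraries was analysed from the deposited read counts per gene, which are not normalized. Per the file headers, featureCounts of Subread 2.0.0 counted reads over exons of the UCSC hg19 annotation with strand setting 2. Per the submitters' processing notes, reads were aligned with STAR 2.7.6a. Strand was used, and the headers set no option for reads that map to several places. Samples were grouped by their titles. Groups were compared with edgeR 4.0.16 in R 4.3.3 by its quasi-likelihood test, with TMM scaling, filterByExpr, the group as the only term and Benjamini-Hochberg adjustment over 16040 genes at a threshold of 0.05. The code was tested on simulated data. Alternatives were other scalings, DESeq2 1.42.0, limma-voom (limma 3.58.1), other count filters, removal of a trend with exon length (loess, span 0.3), and leaving out each library.

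No pair of replicates was a duplicate: a chi-square of their counts, divided by its degrees of freedom, was 15.8 for sh60 and 5.89 for LacZ over genes with 20 counts or more. The first principal component of log CPM held 76.0% of the variance and separated the groups. Across genes the shared coefficient of biological variation came to 7.33%, on 2 residual degrees of freedom. The 10 genes and all lists were chosen with earlier results of these data known. All 10 genes are named, and each list gives up to 4 genes past the threshold with the smallest p. Gene coordinates are hg19 as the files give them. Promoter coordinates are GRCh38.p14, and the builds were not mixed.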

Additional observations from a re-analysis of the deposited data

How the results depend on the processing

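Counts of calls moved by up to 1.5 times under other scalings, tools and filters, with the exceptions given here. Over all genes, leaving out 1 library gave 1331 to 2789 genes higher in sh60 (2540 with all libraries) and 956 to 2697 lower (2084), lowest for both without LacZ replicate 3. Of the 10 genes, 7 or 8 stayed higher in sh60 in number under every alternative, 0 or 1 was lower with 1 library left out, and 1 (MFAP2) was lower with upper-quartile scaling, limma-voom, no count filter and the exon length trend removed. With no count filter, 2 thrombospondin receptors were lower and 4 TGF-beta genes higher; by DESeq2, 1 fibronectin receptor was lower, 2 TGF-beta genes were lower and 1 neighbouring gene was higher. With 1 library left out, 0 to 1 thrombospondin receptors, 0 to 3 fibronectin receptors and 2 to 3 TGF-beta genes were lower, and 1 to 2 neighbouring genes were higher and 0 to 5 lower. Library totals only and no count filter each gave 1 lower neighbouring gene. The causes were not tested. These alternatives for neighbouring genes and BEND3 were chosen after seeing the data. Against the order by mean TPM over all 4 libraries, 3 of the 10 genes kept their place when CPM was not divided by length, 4 in LacZ replicate 1 alone and 6 in LacZ replicate 3 alone. The log2 fold changes of the 10 genes, of BEND3 and of the related genes named by rule kept their sign under the alternatives run. Those of the marker genes, of single neighbours and of THBS4, COMP, ITGA5 and ITGB1 were not recomputed under them. Other scalings shifted the median of all genes by under 0.1. No paired analysis was possible because the groups share only replicate number 1. With 1 library left out of a group of 2, the lone library is assumed to vary like the other group. POSTN rests on 57 to 186 counts a library. The SEs of log2 fold changes above are those of edgeR, and DESeq2 gave a larger SE for each of the 10 genes. It was 0.66 for MFAP5 (0.24 by edgeR), 0.51 for LUM (0.20), 0.36 for THBS1 (0.15) and 0.25 for FN1 (0.11).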
